A study of Homo sapiens with 24 samples.

Results

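The comparison described here set SJSA-1 cells given 800 nM THZ531 against SJSA-1 cells given 200 nM of the same compound, with 3 arrays at each dose, so that 6 of the 24 arrays of the series entered it directly. SJSA-1 is an established human osteosarcoma cell line that carries extra copies of MDM2 and CDK4, and the arrays were chosen by the dose in their labels alone. The other arrays hold SJSA-1 cells with 50 nM THZ531 or the vehicle DMSO, and U2-OS cells, a further established osteosarcoma line, with the same 4 treatments. All cells were treated for 6 h, and RNA was measured on Affymetrix PrimeView arrays. A single line at a single time was thus compared, and neither the labels nor the methods say whether the 3 arrays of a dose came from separate cultures, so a p-value here describes array-to-array variation of unknown, possibly technical, origin.

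THZ531 is a covalent inhibitor of CDK12 and CDK13. These kinases work with cyclin K and phosphorylate the tail of RNA polymerase II while it moves along a gene, and loss of their activity is known to let the polymerase stop early, at poly(A) sites inside long genes, with DNA repair genes among the best known examples. Immediate-early genes, a contrasting class, are short genes that cells switch on within minutes of a stimulus and whose RNA decays quickly.

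Values are RMA intensities of probe sets, where RMA is a method that corrects background, sets all arrays to the same distribution and summarizes the probes of a set. A level below is the log2 of that intensity. A gene was called active when its mean level over the 3 DMSO arrays of SJSA-1 exceeded log2(100), and 6568 of 18132 genes on the array met this. Genes were called changed at an adjusted p under 0.05 in limma. Array medians lay between 30.1 and 32.7 over the 12 SJSA-1 arrays, and the 3 arrays of a dose correlated at 0.996 or above over the probe sets. MDM2 had levels of 10.00, 10.27 and 10.31 at 800 nM, against 10.19, 10.05 and 10.05 at 200 nM. SPARC was the only osteoblast marker of 12 above a mean intensity of 100, in DMSO and at either dose, while 0 of 17 markers of neurons and glia and 0 of 14 of leukocytes and endothelium were above it, although the extraction text of the labels speaks of brain tissue.

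Raising the dose to 800 nM moved many genes by small amounts in both directions. Of the 6568 active genes, 2196 (33.4%) were called, 1327 (20.2%) higher and 869 (13.2%) lower at 800 than at 200 nM, and 2837 had an unadjusted p under 0.05. The median change of all active genes was 0.02 on the log2 scale. The largest rise was 1.91-fold, so that no gene passed a 2-fold rise, whereas 22 genes (0.335%) fell by at least 2-fold and the largest fall was 2.81-fold. Arrays of the 2 doses did not overlap for 1577 genes (24%) that were higher and 1098 genes (16.7%) that were lower. Leaving out the 200 nM array numbered 3 left 852 genes called higher, fewer by a factor of over 1.5. Without the 200 nM array numbered 1, 2 genes passed a 2-fold rise, and without the 800 nM array numbered 1, 1 gene did. The zero of a change also rests on the normalization. Bacterial poly-A RNAs spiked into the samples had a mean level 0.074 higher at 800 than at 200 nM, and shifting the arrays to these controls left 142 genes higher and 469 lower. These controls had an SD of 0.195 between the 200 nM arrays and of 0.146 between the 800 nM arrays. The shift thus moved single arrays of a dose as well as the zero, and the part of each in the lost calls was not tested. With poly-A and hybridization controls together 406 genes were higher and 669 lower, and with the hybridization controls alone 738 were higher and 779 lower. Centring each array on its median gave 1580 higher and 763 lower, and quantile normalization again over the 12 SJSA-1 arrays gave 1060 higher and 1031 lower. The share of rises among calls, 60.4%, therefore depends on the scaling, and the changes below are relative to the deposited normalization.

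**Figure D1:**
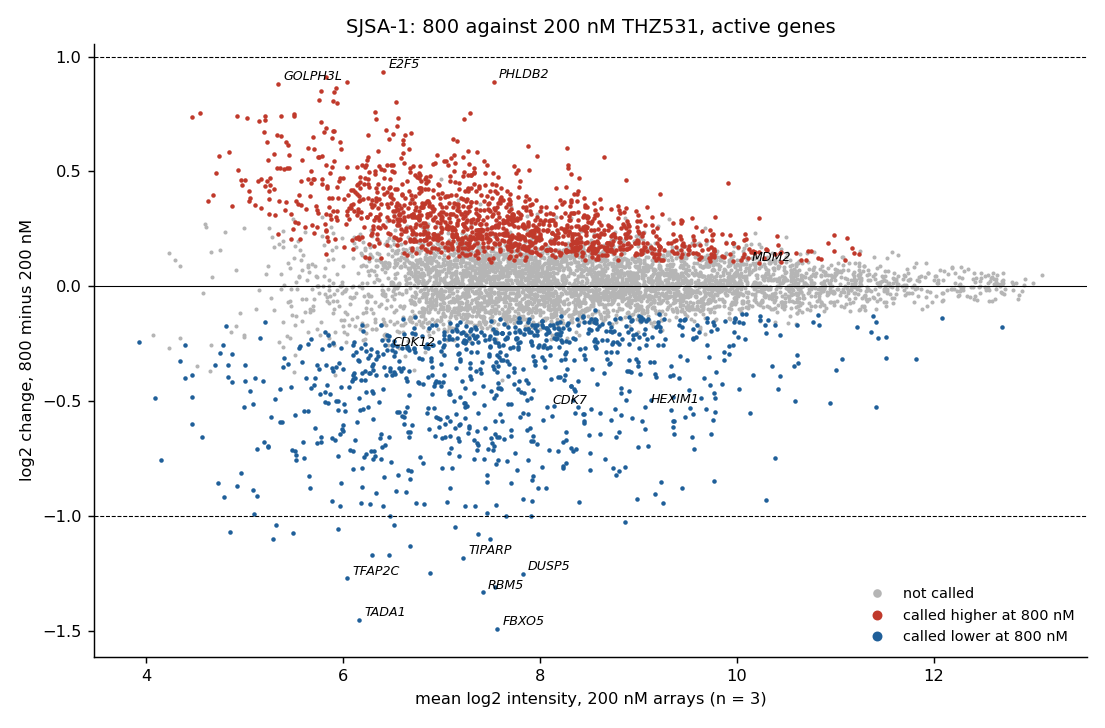
Log2 change at 800 minus 200 nM THZ531 (y axis) against the mean log2 intensity of the 3 arrays at 200 nM (x axis) for the 6568 active genes of SJSA-1. Red points are the 1327 genes called higher at 800 nM, blue points the 869 called lower and grey points the rest; dashed lines mark a 2-fold change, which 0 rises and 22 falls passed.

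The strongest rises were genes that were lower than in DMSO at 50 and 200 nM and stood closer to their DMSO level at 800 nM. The 20 largest rises with separate arrays ranged from 0.74 to 0.93 on the log2 scale. Their genes span 37.4 to 916 kb, with a median of 99.1 kb, against a median span of 30.4 kb over the active genes with a known span. Against DMSO their median change was −1.76 at 50 nM, −1.88 at 200 nM and −1.02 at 800 nM. These changes share the DMSO arrays with each other, and the 200 and 800 nM arrays with the choice of the genes, and are a description. Active genes exceed an intensity of 100 in DMSO, so a mean below 100 at a dose fixes a fall against DMSO. This held for 18 of the 20 at 200 nM. Of all active genes, 40.5% were called lower and 26.6% higher than DMSO at 50 nM, 41% lower and 33.8% higher at 200 nM, and 37.5% lower and 36.4% higher at 800 nM. The poly-A controls were 0.508 higher than in DMSO at 50 nM, 0.470 at 200 nM and 0.544 at 800 nM, so that a shift to them would lower every change against DMSO by these amounts, and their part in such changes was not tested.

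E2F5, a member of the E2F family of cell cycle transcription factors, had levels of 7.39, 7.41 and 7.23 at 800 nM, against 6.41, 6.42 and 6.4 at 200 nM, a rise of 0.93 ± 0.050 (SE, n = 3 each; adjusted p = 9.38e-08 from limma). All 3 arrays at 800 nM lay well above the 200 nM arrays, and the mean in DMSO was higher still, at 8.29. PHLDB2, which helps to anchor microtubules at the cell edge, had 8.43, 8.47 and 8.36 at 800 nM, against 7.73, 7.44 and 7.42 at 200 nM, with 9.22 in DMSO and 7.46 at 50 nM. PMS1, of the mismatch repair family, had 6.78, 6.85 and 6.74 at 800 nM, against 6.10, 5.77 and 5.91 at 200 nM. In both genes the 200 nM array numbered 1 was the highest of its group and still below each array at 800 nM.

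Several further rises encode parts of the gene expression machinery, although the lists fixed for such functions hold members that moved in either direction. INTS7, a subunit of the Integrator complex that cleaves nascent RNA, had 6.65, 6.85 and 6.76 at 800 nM, against 6.15, 5.83 and 5.74 at 200 nM. BDP1, a subunit of the initiation factor of RNA polymerase III, had 7.14, 7.45 and 7.42 at 800 nM, against 6.69, 6.39 and 6.52 at 200 nM. UPF2, which acts in nonsense-mediated decay, had 6.95, 7.17 and 7.12 at 800 nM, against 6.41, 6.24 and 6.32 at 200 nM. Groups were separate for each of these genes, by a gap that exceeded their spread. CREB1, a transcription factor that answers to cyclic AMP, rose by 0.74 ± 0.11 (SE, adjusted p = 0.000235 from limma), MBNL2, a splicing regulator, by 0.75 ± 0.13 and RPAP2, a phosphatase of the polymerase tail, by 0.74 ± 0.080. MBNL2 was at 7.98 in DMSO and at 7.89, 8.26 and 7.97 on the 800 nM arrays.

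At 800 nM 17 of the 20 rises were still called lower than DMSO and 0 higher. Among the 17 were HDAC9 and PRKCE, the longest genes of the 20. HDAC9, a class IIa histone deacetylase that spans 916 kb on chromosome 7, had levels of 5.27, 5.24 and 5.40 at 800 nM, against 4.57, 4.49 and 4.59 at 200 nM, with 7.38 in DMSO. PRKCE, which encodes protein kinase C epsilon over 537 kb, had 6.16, 6.13 and 6.04 at 800 nM, against 5.27, 5.42 and 5.42 at 200 nM, with 7.30 in DMSO. Both remained below an intensity of 100 at either dose. Of the 20 rises, 10 at 800 nM and 18 at 200 nM had a mean below that intensity. The remaining members were DNAJC6, BEND4, GOLPH3L, FASTKD1, FBXO28, HMGA2, JADE2, CHD9 and APPBP2, with rises of 0.74 to 0.91 and adjusted p-values up to 0.00193 from limma.

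The 20 largest falls with separate arrays had changes of −1.04 to −1.49 on the log2 scale, and their median change against DMSO was 0.08 at 50 nM, −1.21 at 200 nM and −2.55 at 800 nM. The choice of the genes fixes that 800 nM lies below 200 nM here, and the changes share the DMSO arrays, so they are a description. At 50 nM these genes had on the median no fall. They span 8.05 to 111 kb, with a median of 31.0 kb. All 20 had a mean intensity below 100 at 800 nM, and 10 of them did at 200 nM. As active genes exceed 100 in DMSO, the filter fixes that they lay below DMSO there.

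Cell cycle regulators stood among the largest falls, although the cell cycle lists moved both ways, with shares close to those of all active genes. FBXO5, whose protein (EMI1) restrains the anaphase-promoting complex, had levels of 5.78, 6.09 and 6.35 at 800 nM, against 7.98, 7.42 and 7.29 at 200 nM, a fall of 1.49 ± 0.16 on the log2 scale (SE, n = 3 each; adjusted p = 1.39e-05 from limma), while DMSO stood at 8.66 and 50 nM at 8.35. WEE1, the kinase that holds back entry into mitosis, had 6.19, 6.27 and 6.24 at 800 nM, against 7.66, 7.44 and 7.52 at 200 nM, with an adjusted p of 4.60e-08 from limma. Its level was 8.85 at 50 nM and 8.70 in DMSO. CDC25A, the phosphatase that activates cyclin-dependent kinases at the start of S phase, had 6.05, 6.15 and 6.06 at 800 nM, against 7.29, 7.15 and 6.96 at 200 nM. In all of these the groups lay apart by more than the spread of either dose.

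Further falls included chromatin and RNA processing factors, of which the lists fixed for these functions hold members that moved in either direction. TADA1, a subunit of the SAGA coactivator, had levels of 4.70, 4.73 and 4.70 at 800 nM, against 6.43, 6.04 and 6.01 at 200 nM. RBM5, an RNA-binding splicing regulator, had 6.12, 6.19 and 5.95 at 800 nM, against 7.46, 7.34 and 7.45 at 200 nM, and fell by 1.33 on the log2 scale. CHD1, a chromatin remodeller of active genes, had 5.23, 5.31 and 5.34 at 800 nM, against 6.72, 6.21 and 6.46 at 200 nM. PAPOLG, a poly(A) polymerase, had the largest SE of the 20 falls, 0.174, with levels of 3.23, 4.01 and 4.12 at 800 nM, against 4.97, 4.88 and 4.72 at 200 nM. MIDEAS, a component of a mitotic deacetylase complex, fell by 1.04 on the log2 scale with an SE of 0.046.

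Transcription factors and signalling genes made up most of the remainder. DUSP5, a phosphatase of nuclear ERK, had levels of 6.48, 6.57 and 6.67 at 800 nM, against 7.87, 7.83 and 7.77 at 200 nM. TFAP2C, an AP-2 transcription factor, had 4.65, 4.61 and 5.05 at 800 nM, against 6.29, 6.12 and 5.71 at 200 nM. FOXO1, a forkhead factor under insulin control, had 5.41, 5.65 and 5.6 at 800 nM, against 6.83, 6.61 and 6.61 at 200 nM. The arrays of the 2 doses did not overlap in any of them. TRIB1, a pseudokinase of the Tribbles family, had 6.44, 6.23 and 6.21 at 800 nM, against 7.44, 7.29 and 7.38 at 200 nM. It was the only one of the 20 whose mean at 200 nM was above DMSO, at 7.08, in the deposited normalization. TGIF1, TIPARP, SNRK, ZNF217, HAPSTR1, RAB20, PPM1D and CDR2 completed the set, with changes of −1.04 to −1.25.

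**Figure D2:**
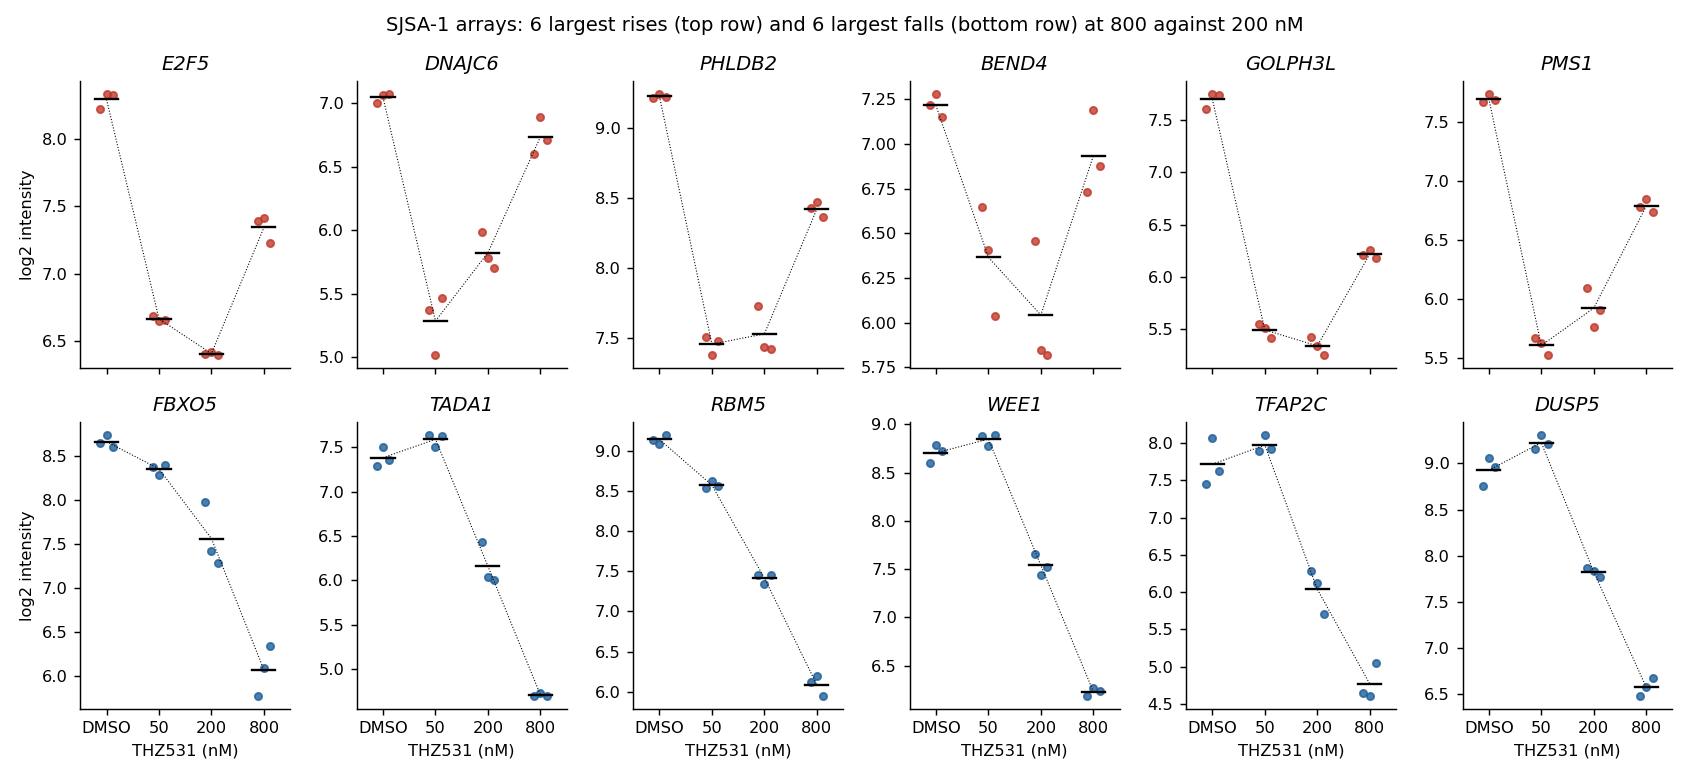
Log2 intensity (y axis) of the 6 largest rises (top row) and the 6 largest falls (bottom row) on each of the 12 SJSA-1 arrays, by THZ531 dose (x axis, DMSO, 50, 200 and 800 nM; 3 points per dose, bars at the mean). In the top row the 50 and 200 nM points lie below DMSO and the 800 nM means in between, with 1 array of BEND4 at 7.19 within its DMSO range, while in the bottom row the 800 nM points are the lowest, as for WEE1 with 6.19 to 6.27.

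Gene span went with the direction of the change across all active genes of SJSA-1. Of 1326 genes under 10 kb, 6.71% were called higher and 19.1% lower at 800 nM, with a median change of −0.03. Of 939 genes of 100 to 300 kb, 38.3% were higher and 7.99% lower, with a median change of 0.12. The bins in between lay between these values, with 13.3% higher and 15.1% lower at 10 to 30 kb and 25.8% higher and 10.7% lower at 30 to 100 kb. The 147 genes over 300 kb had 32.7% higher and 6.12% lower. The median DMSO level was 8.58 under 10 kb and 7.95 at 100 to 300 kb, so span goes with level, whose part was not tested. In U2-OS the median change between these doses was −0.02 under 10 kb and −0.05 at 100 to 300 kb, over 1206 and 801 genes active in both lines. The median span was 59.9 kb for genes called higher, 20.8 kb for genes called lower and 26.6 kb for the rest, and the Spearman correlation of span and change over the 6566 genes with a span was 0.34, given as a description since genes of a library are not independent replicates.

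The difference between the median changes of the 100 to 300 kb genes and of the genes under 10 kb was 0.15. It lay between 0.12 and 0.19 when each array was left out in turn. The difference between the mean levels of these bins on an array, an unlike measure, had a largest SD of 0.066 between the arrays of a dose. The mean level of the genes of 100 to 300 kb was 7.77, 7.84 and 7.82 on the 800 nM arrays, against 7.77, 7.67 and 7.65 on the 200 nM arrays. The 200 nM array numbered 1 thus reached the lowest of the 800 nM arrays, and the other two did not. That array also had the highest poly-A control level at 200 nM, with 6.44, 6.73 and 6.54 at 800 nM, against 6.72, 6.4 and 6.37 at 200 nM, and at 800 nM the array with the highest poly-A control level was also the one with the highest level of long genes. The part of the poly-A controls in the difference was not tested. Against DMSO, the 100 to 300 kb genes had median changes of −0.23 at 50 nM, −0.18 at 200 nM and −0.05 at 800 nM.

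**Figure D3:**
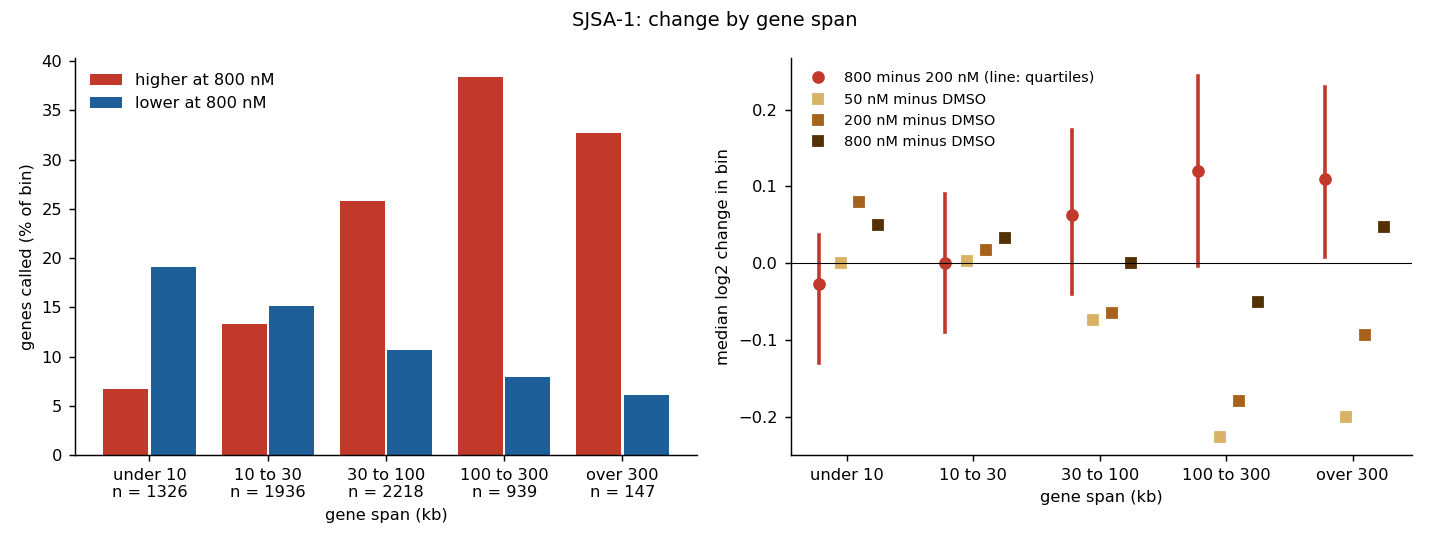
Left, percentage of active SJSA-1 genes called higher (red) and lower (blue) at 800 against 200 nM THZ531 in 5 bins of gene span (x axis, kb). Right, median log2 change of each bin for 800 minus 200 nM (red, with quartiles) and for 50, 200 and 800 nM minus DMSO (squares); rises reach 38.3% at 100 to 300 kb, where falls are at 7.99%.

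Among the gene lists with at least 6 active members, the immediate-early genes had the largest share called in a single direction. Of 27 members active in DMSO 21 (77.8%) were lower and 0 higher at 800 nM, against 13.2% and 20.2% of all active genes, with a median change of −0.45. The remaining 6 were FOSL2, JUNB, IER2, IER3, ZFP36 and SRF, with changes between −0.20 and 0.08. The filter on DMSO leaves out members that were near silent without the compound. Of 40 members on the array, 4 were below an intensity of 100 in DMSO and above it at 200 or 800 nM, and in a fit of all 18132 genes with no filter 1 of these was higher, 2 were lower and 1 was not called. The higher one was FOS, an AP-1 subunit gene, with levels of 9.17, 9.18 and 9.21 at 800 nM, against 8.96, 8.98 and 8.99 at 200 nM, and a mean of 5.08 in DMSO. It rose by 0.21 ± 0.052 (SE, adjusted p = 0.0170 from limma). EGR1, a zinc finger transcription factor gene, had 8.68, 8.89 and 8.86 at 800 nM, against 8.77, 8.64 and 8.67 at 200 nM, with overlapping groups and an adjusted p of 0.555. MYC was among the lower ones, with a mean intensity above 100 at both doses. A member above it at 1 dose only has its direction fixed by this choice. Among the 27 active members, across the settings that kept the same genes, 18 to 23 were lower and 0 higher. KLF2, a Krüppel-like transcription factor, had levels of 6.53, 6.4 and 6.49 at 800 nM, against 7.37, 7.45 and 7.56 at 200 nM, and fell by 0.99 ± 0.054 on the log2 scale (SE, adjusted p = 9.42e-08 from limma). DUSP4, a nuclear phosphatase of MAP kinases, had 5.61, 5.99 and 5.64 at 800 nM, against 6.69, 6.66 and 6.57 at 200 nM. Neither gene had overlapping groups. The AP-1 subunit genes FOSL1 and JUN fell by 0.80 ± 0.100 and 0.38 ± 0.051, the ERK phosphatase gene DUSP6 by 0.67 ± 0.057 and the RNA decay factor gene ZFP36L2 by 0.82 ± 0.051 (SE).

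The mean level of the list was 8.4, 8.48 and 8.48 at 800 nM, against 8.96, 8.91 and 8.93 at 200 nM, so that every array at 800 nM was below every array at 200 nM. At 50 nM its median change against DMSO was 0.54, at 200 nM 0.29 and at 800 nM −0.19, in the deposited normalization; the rise of the poly-A controls over DMSO exceeds the change at 200 nM. The list shares DUSP5 and TRIB1 with the 20 largest falls. It has a median span of 5267 bp and is thus made of short genes, which as a class were more often lower (19.1% under 10 kb). In bulk RNA, less transcript per cell and fewer cells that express a gene cannot be told apart.

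Promoters from RefSeq (GRCh38.p14; 250 bases before to 50 after the start) were searched on both strands for TATAAA, the core of a TATA box, for TGACG, the core of the element that CREB and ATF factors bind, and for the CArG box that serum response factor binds. TATAAA lay in 7 of 18 promoters found for the immediate-early list (38.9%), against 5.24% of the 5610 promoters of active genes, 8.41% of those of genes lower and 3.57% of those of genes higher at 800 nM. TGACG lay in 9 of the 18, against 38% of all, and the CArG box in 1, against 1.14%. Of the 20 largest falls 15 had a promoter, of which 0 held TATAAA or a CArG box and 5 held TGACG. Of the 20 largest rises 18 had a promoter, of which 0 held TATAAA or a CArG box and 5 held TGACG. A match describes the letters and no more. The 250 bases before the start are shown for 3 genes that fell at 800 nM, DUSP1 and BTG1 of the immediate-early list, where TATAAA lies close to the start, and PPM1D of the largest falls, where both strands of TGACG overlap in a palindrome. Capitals mark TATAAA and TGACG on either strand, and each is written 5′ to 3′ along the strand of its gene.
DUSP1, chr5:172771196-172771445, minus strand: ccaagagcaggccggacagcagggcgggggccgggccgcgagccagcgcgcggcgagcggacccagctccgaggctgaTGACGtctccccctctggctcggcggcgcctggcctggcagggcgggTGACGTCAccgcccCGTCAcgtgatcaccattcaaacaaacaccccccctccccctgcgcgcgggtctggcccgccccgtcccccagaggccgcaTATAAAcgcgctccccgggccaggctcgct
BTG1, chr12:92145847-92146096, minus strand: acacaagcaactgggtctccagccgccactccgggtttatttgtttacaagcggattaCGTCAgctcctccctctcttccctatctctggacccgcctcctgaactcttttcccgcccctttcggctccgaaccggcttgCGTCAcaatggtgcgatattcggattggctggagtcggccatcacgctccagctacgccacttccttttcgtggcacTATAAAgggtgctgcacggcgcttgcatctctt
PPM1D, chr17:60599943-60600192, plus strand: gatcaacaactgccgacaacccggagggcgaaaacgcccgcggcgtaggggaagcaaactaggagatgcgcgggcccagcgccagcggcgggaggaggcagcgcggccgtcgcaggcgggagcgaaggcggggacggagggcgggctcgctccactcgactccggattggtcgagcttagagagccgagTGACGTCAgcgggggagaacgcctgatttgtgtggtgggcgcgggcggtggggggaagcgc
DUSP1, a phosphatase that switches off MAP kinases, fell by 0.57 ± 0.052 on the log2 scale, and BTG1, an antiproliferative gene, by 0.56 ± 0.053 (SE). PPM1D, the WIP1 phosphatase that p53 induces and that turns p53 signalling off, had levels of 4.86, 4.96 and 4.86 at 800 nM, against 6.02, 5.94 and 5.89 at 200 nM.

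The DNA repair list held more rises than falls. Of 23 active genes of homologous recombination, the Fanconi pathway and the replication checkpoint, 12 (52.2%) were higher and 2 lower at 800 nM, with a median change of 0.19. Among all active genes 20.2% were higher, and among those of 30 to 100 kb, the class that holds the list's median span of 51337 bp, 25.8% were. ATR, the kinase that senses stalled replication forks, had levels of 7.11, 7.28 and 7.34 at 800 nM, against 6.85, 6.49 and 6.48 at 200 nM. The helicase gene BLM had 5.37, 5.45 and 5.49 at 800 nM, against 4.97, 5.05 and 4.77 at 200 nM. Neither pair of groups overlapped, and the 200 nM array numbered 1 was the highest of its group for ATR. RAD54B, a recombination ATPase, and EXO1, an exonuclease that resects breaks, rose by 0.59 ± 0.048 and 0.55 ± 0.080 (SE). The list stayed below DMSO on the median, with a change of −0.58 at 50 nM, −0.42 at 200 nM and −0.24 at 800 nM. Members had to exceed an intensity of 100 in DMSO, and 10 of the 23 exceeded 200 there, so the filter favours a fall against DMSO. Its count depended on the arrays and the scaling. It was 8 without the 200 nM array numbered 2 or 3 or the 800 nM array numbered 2, 6 after the shift by both kinds of controls, and 4 after the poly-A shift or in the methods' test with adjustment.

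Kinases and factors of transcription itself changed unevenly. Of 37 active members 7 (18.9%) were higher and 9 (24.3%) lower, against 20.2% and 13.2% of all active genes. CDK12, a target of the compound, had levels of 6.15, 6.23 and 6.13 at 800 nM, against 6.45, 6.60 and 6.29 at 200 nM, and fell by 0.28 ± 0.073 on the log2 scale (SE, adjusted p = 0.0115 from limma), with 7.44 in DMSO. Under the poly-A shift its change was −0.35 with an adjusted p of 0.127. Without the 200 nM array numbered 2 its change was −0.20 with an adjusted p of 0.0538 from limma. CDK13, the other target, was below an intensity of 100 in DMSO and not among the genes tested, with levels of 5.39, 4.95 and 5.06 at 800 nM, against 4.99, 4.97 and 5.24 at 200 nM. CCNK, which encodes cyclin K, changed by −0.08 with an adjusted p of 0.157, and CDK9, the kinase of P-TEFb, by −0.09 with an adjusted p of 0.323. CDK7, the kinase of TFIIH, had 7.52, 7.64 and 7.47 at 800 nM, against 8.10, 8.11 and 8.0 at 200 nM.

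HEXIM1, which holds P-TEFb inactive and is induced when transcription is blocked, had levels of 8.48, 8.53 and 8.62 at 800 nM, against 9.20, 9.04 and 8.96 at 200 nM, with 9.32 at 50 nM and 8.14 in DMSO. It was thus highest at the lowest dose. BRD2, a bromodomain reader of acetylated histones, ran alike, with 9.59, 9.53 and 9.63 at 800 nM, against 10.09, 10.19 and 10.12 at 200 nM. MEPCE, which caps the RNA of the P-TEFb reservoir, fell by 0.55 ± 0.085 (SE).

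In the list of Mediator, TFIID and polymerase II subunits 5 of 43 (11.6%) were higher and 9 (20.9%) lower, against 20.2% and 13.2% of all active genes. MED26, the Mediator subunit that recruits elongation factors, had levels of 6.79, 6.99 and 6.92 at 800 nM, against 7.85, 7.84 and 7.79 at 200 nM, and MED13, of the kinase module, moved the other way, with 7.14, 7.45 and 7.30 at 800 nM, against 6.62, 6.52 and 6.55 at 200 nM. MED17 and MED7 fell by 0.69 and 0.49 on the log2 scale. Of 29 members of 3′ end processing and Integrator 9 (31.0%) were higher and 6 (20.7%) lower. Among them INTS6, a further Integrator subunit, rose by 0.63 ± 0.073, and CLP1, a kinase of the cleavage machinery, fell by 0.85 ± 0.060 (SE). SR proteins, hnRNPs and their CLK kinases were mostly not called (2 of 36, or 5.56%, higher and 5, or 13.9%, lower). CLK1, which phosphorylates SR proteins, stood out in that list, with 6.80, 6.95 and 6.99 at 800 nM, against 8.03, 7.82 and 7.88 at 200 nM, and CLK4 fell by 0.57 ± 0.099 (SE). The study's candidate SRSF3, an SR protein, had 11.51, 11.51 and 11.49 at 800 nM, against 11.46, 11.40 and 11.41 at 200 nM, a change of 0.08 with an adjusted p of 0.119 from limma.

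Of the other candidate genes that the study names, LACTB, a mitochondrial protein, had levels of 7.58, 7.69 and 7.45 at 800 nM, against 7.12, 7.02 and 6.95 at 200 nM, and CEP55, which acts in the last step of cell division, had 9.04, 9.24 and 9.16 at 800 nM, against 8.93, 8.75 and 8.71 at 200 nM. Both rose, by 0.54 ± 0.062 (adjusted p = 2.45e-05) and by 0.35 ± 0.067 (SE, adjusted p = 0.00156 from limma), and CEP55 lost its call under the poly-A shift (0.28, adjusted p = 0.323). FOXP1, TCF7L2 and DNAJB12 had changes of 0.11, −0.12 and −0.03 with adjusted p-values of 0.187, 0.167 and 0.662. APOLD1 was not active, at 3.83, 3.73 and 3.71 on the 800 nM arrays, against 3.87, 3.87 and 3.94 on the 200 nM arrays. The study chose these genes partly for their response to THZ531, so they are no independent evidence.

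Cell cycle lists moved both ways. Of 55 genes of G2/M and mitosis 13 were higher and 7 lower, and of 51 of replication and G1/S 12 were higher and 6 lower, shares close to those of all active genes. KIF14, a kinesin of cytokinesis, had levels of 6.93, 7.22 and 7.19 at 800 nM, against 6.56, 6.36 and 6.38 at 200 nM, and ORC5, of the origin recognition complex, had 6.82, 6.83 and 6.80 at 800 nM, against 6.36, 6.24 and 6.16 at 200 nM. AURKA, a mitotic kinase, lay the other way, with 9.36, 9.29 and 9.26 at 800 nM, against 9.78, 9.75 and 9.77 at 200 nM, as did CCNE1, which encodes cyclin E1, with 6.12, 6.01 and 6.01 at 800 nM, against 6.72, 6.94 and 6.78 at 200 nM. In none of the 4 did the groups overlap.

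Stress lists held calls in both directions, against 20.2% higher and 13.2% lower among all active genes. Of 23 genes of the ATF4 amino acid response 10 (43.5%) were lower and 2 higher, of 22 p53 targets 7 were lower and 4 higher, of 15 NF-kB and cytokine genes 4 were lower and 1 higher and of 30 heat shock genes 7 were lower and 3 higher. The median change was −0.07 for the ATF4 list, −0.05 for the p53 list, 0.01 for the NF-kB list and 0.005 for the heat shock list. The lower count of the ATF4 list was 5 after the poly-A shift. SLC38A2, a neutral amino acid transporter, had levels of 8.31, 8.31 and 8.29 at 800 nM, against 9.35, 9.18 and 9.21 at 200 nM. CEBPB, a bZIP transcription factor, and TRIB3, a Tribbles pseudokinase induced by ATF4, fell by 0.78 and 0.53 on the log2 scale. GDF15, a secreted stress marker, had 9.0, 8.89 and 8.91 at 800 nM, against 9.27, 9.35 and 9.35 at 200 nM. PLK2, a kinase that p53 induces, had 10.01, 10.11 and 10.16 at 800 nM, against 10.62, 10.57 and 10.58 at 200 nM, with a DMSO mean of 9.86. These genes were separate between the doses.

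The NF-kB feedback genes TNFAIP3 and NFKBIA fell by 0.65 and 0.40 on the log2 scale, and the cytokine gene LIF rose by 0.60. Among heat shock genes DNAJB1 and HSPA1B, whose products are a co-chaperone and an inducible chaperone, fell by 0.68 and 0.64. Of 24 genes of the BCL2 family, death receptors and IAPs 4 (16.7%) were higher and 4 (16.7%) lower, against 20.2% and 13.2% of all active genes. FADD, the adaptor of death receptors, had levels of 6.00, 5.47 and 5.74 at 800 nM, against 6.59, 6.86 and 6.22 at 200 nM, with 9.41 in DMSO. MCL1, a short-lived antiapoptotic protein, had 9.62, 9.51 and 9.60 at 800 nM, against 10.07, 10.01 and 9.99 at 200 nM, while XIAP, an inhibitor of caspases, had 7.11, 7.72 and 7.51 at 800 nM, against 7.09, 6.80 and 6.85 at 200 nM, with its lowest 800 nM array just above the highest 200 nM array.

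Counts in the signalling, chromatin and zinc finger lists stand against 20.2% higher and 13.2% lower among all active genes. Of 29 receptor and growth signalling genes 10 were higher and 5 lower, with EFNB2, the ephrin B2 ligand, falling by 1.0, and SPRY2 and SPRY4, inhibitors of receptor signalling, by 0.85 and 0.60. Chromatin regulators had 11 of 47 higher and 16 lower, with ARID1A, a SWI/SNF subunit, falling by 0.66. Numbered zinc finger genes had 15 of 72 higher and 22 lower, and deubiquitinases of the USP family 9 of 28 higher and 5 lower. Of 25 genes around CDK4 and MDM2 on chromosome 12, 6 were higher and 1 lower. HMGA2, an architectural chromatin protein encoded there, had levels of 6.53, 6.81 and 6.86 at 800 nM, against 6.03, 5.84 and 5.94 at 200 nM, while the probe set that stands for MDM2 changed by 0.10 with an adjusted p of 0.463 from limma, and its groups overlapped. Of the other active MDM2 probe sets, 2 were called higher, by 0.39 and 0.38, and 2 lower, with changes of −0.16 and −0.20, so no direction can be given for MDM2. Adhesion and matrix genes had 4 of 31 higher and 0 lower.

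Little moved in the lists of the cytoplasmic ribosome, respiratory chain and proteasome, against 20.2% higher and 13.2% lower among all active genes. The cytoplasmic ribosome list has a median span of 5127 bp, and of genes under 10 kb 6.71% were higher and 19.1% lower. Of 71 genes of the cytoplasmic ribosome 0 were higher and 1 lower, of 72 of the respiratory chain and ATP synthase 0 were higher and 1 lower, and of 33 proteasome subunits 2 were higher and 2 lower. The mitochondrial ribosome had 6 of 74 higher and 7 lower, and hypoxia and glycolysis 1 of 27 higher and 2 lower. ADM, a secreted peptide gene of the hypoxia list, fell by 0.45 and VEGFA, the angiogenic growth factor gene, by 0.35. Of 6 active histone genes 3 were lower, and of 7 small nucleolar RNA host genes 2 were lower.

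**Figure D4:**
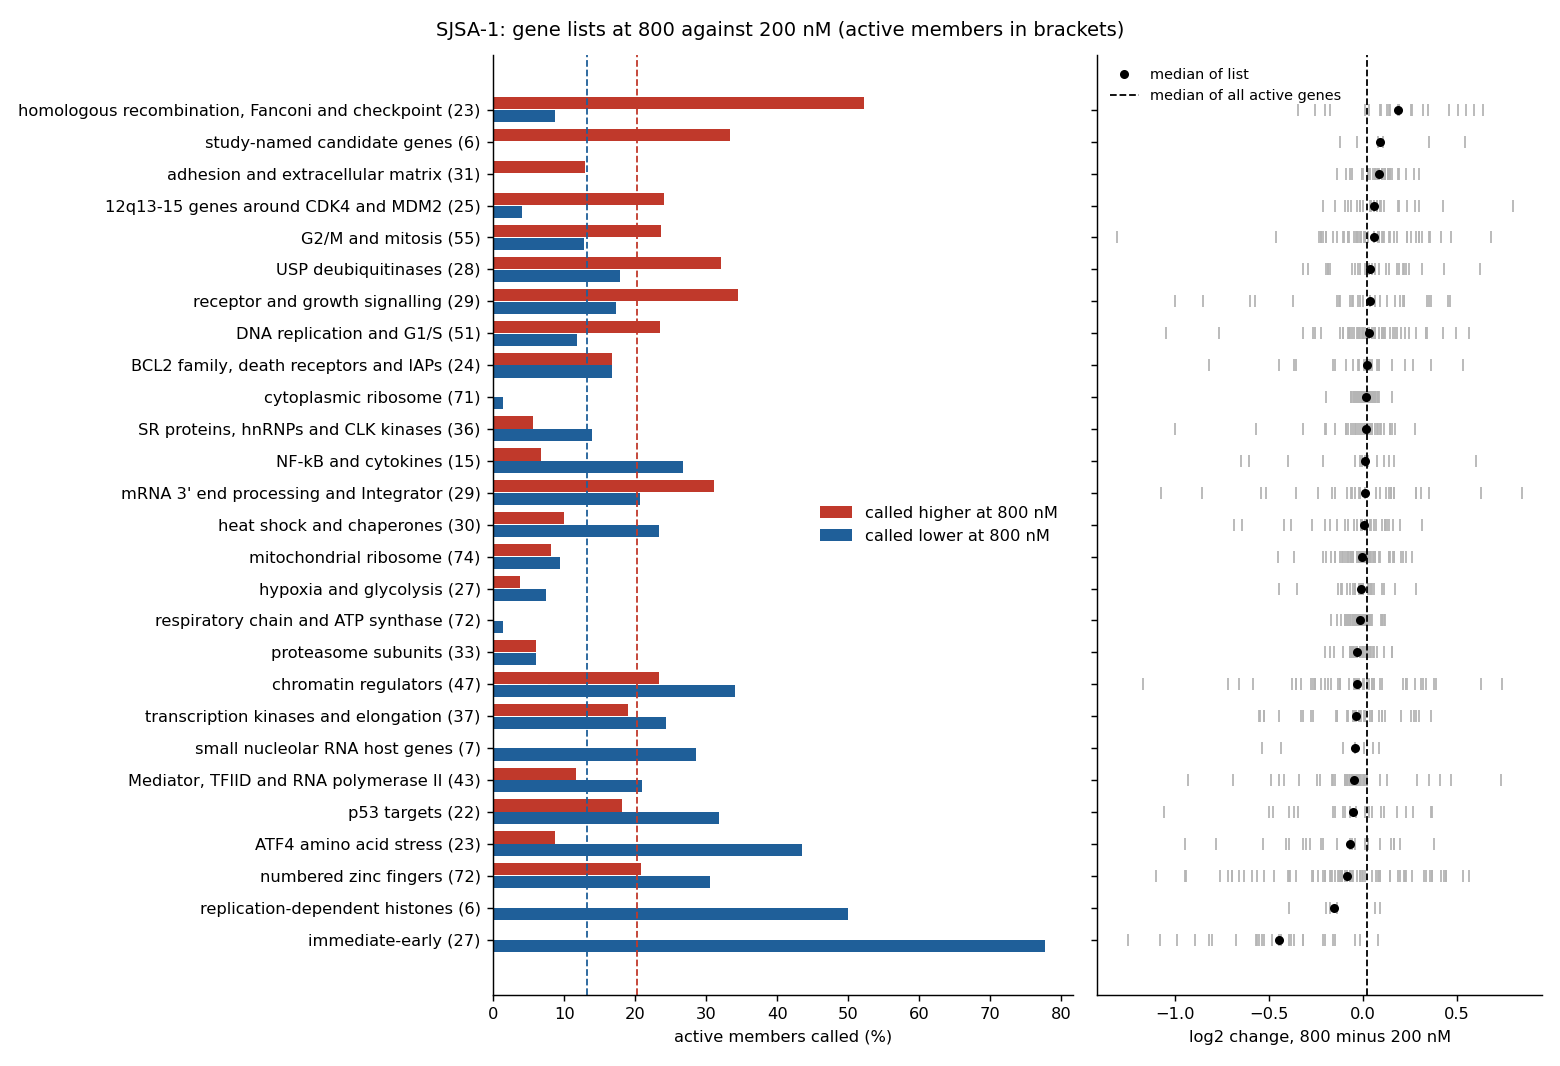
Left, percentage of the active members of each gene list called higher (red) and lower (blue) at 800 against 200 nM THZ531 in SJSA-1, with dashed lines at the shares of all active genes (20.2% and 13.2%). Right, log2 change of each member (grey ticks) and the list median (black), with the median of all active genes dashed; the immediate-early list has 77.8% lower and a median of −0.45.

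In the deposited normalization, the change from 200 to 800 nM ran in opposite directions in SJSA-1 and U2-OS for many genes. All counts in this paragraph are from that normalization. Over 5851 genes active in both lines the SJSA-1 change differed from the U2-OS change for 2296 genes (39.2%), with 1405 more positive and 891 more negative in SJSA-1. In U2-OS itself 2264 genes (38.7%) were called between these doses, 889 (15.2%) higher and 1375 (23.5%) lower at 800 nM. Of the 1125 genes called higher in SJSA-1 and active in both lines, 557 (49.5%) were lower at 800 nM in U2-OS and 61 (5.42%) higher, and the 557 made up 40.5% of the genes lower in U2-OS. Of the 747 called lower in SJSA-1, 284 (38%) were higher in U2-OS, or 31.9% of the genes higher there, and 140 (18.7%) were lower. The lines share no arrays.

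Of the 20 largest rises, 16 were active in both lines, and 14 of these were lower and 0 higher at 800 nM in U2-OS, with a median change of −0.68 there. PHLDB2 changed by 0.89 in SJSA-1 and by −1.0 in U2-OS, and FASTKD1, a regulator of mitochondrial RNA, by 0.85 in SJSA-1 and by −0.88 in U2-OS (adjusted p of the U2-OS changes 4.58e-09 and 8.32e-10 from limma). The difference was called for all 16. Of the 20 largest falls, 15 were active in both, and 7 of these were higher and 1 lower in U2-OS, with a difference called for all 15. The genes were picked for their change in SJSA-1, so only their U2-OS change is independent of the choice. Of 23 immediate-early genes active in both lines, 16 were higher and 1 lower at 800 nM in U2-OS, and 20 had a more negative change in SJSA-1. Of 20 genes of the DNA repair list active in both lines, 1 was higher and 9 lower in U2-OS. The change of 12 of these was more positive in SJSA-1 and that of 1 more negative.

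In U2-OS the poly-A controls had levels of 6.05, 6.06 and 6.05 at 800 nM, against 5.66, 5.54 and 5.79 at 200 nM, and their part in the U2-OS changes was not tested. Among the 5851 genes, U2-OS had 98 higher and 2946 lower after the shift by both kinds of controls, against 889 and 1375 as deposited. After the poly-A shift U2-OS had 20 higher and 3811 lower. The overlap of calls between the lines was not recounted under these shifts. A shift by the poly-A controls moved the median difference between the lines to 0.34, against 0.03 as deposited, and left 1262 genes more positive and 125 more negative in SJSA-1. Under it the median U2-OS change of the immediate-early list turned to −0.09, against 0.29 as deposited, with 4 members higher and 5 lower and the difference between the lines called for 9, and that of the 15 falls to −0.16, against 0.22, while 16 of the 16 rises were lower in U2-OS. The difference between the lines stayed called for all 16 rises and all 15 falls under each of the 4 rescalings tried. Each rescaling moves all genes of an array by the same amount, and these genes were picked for large SJSA-1 changes. This outcome was therefore close to fixed in advance and adds no support.

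**Figure D5:**
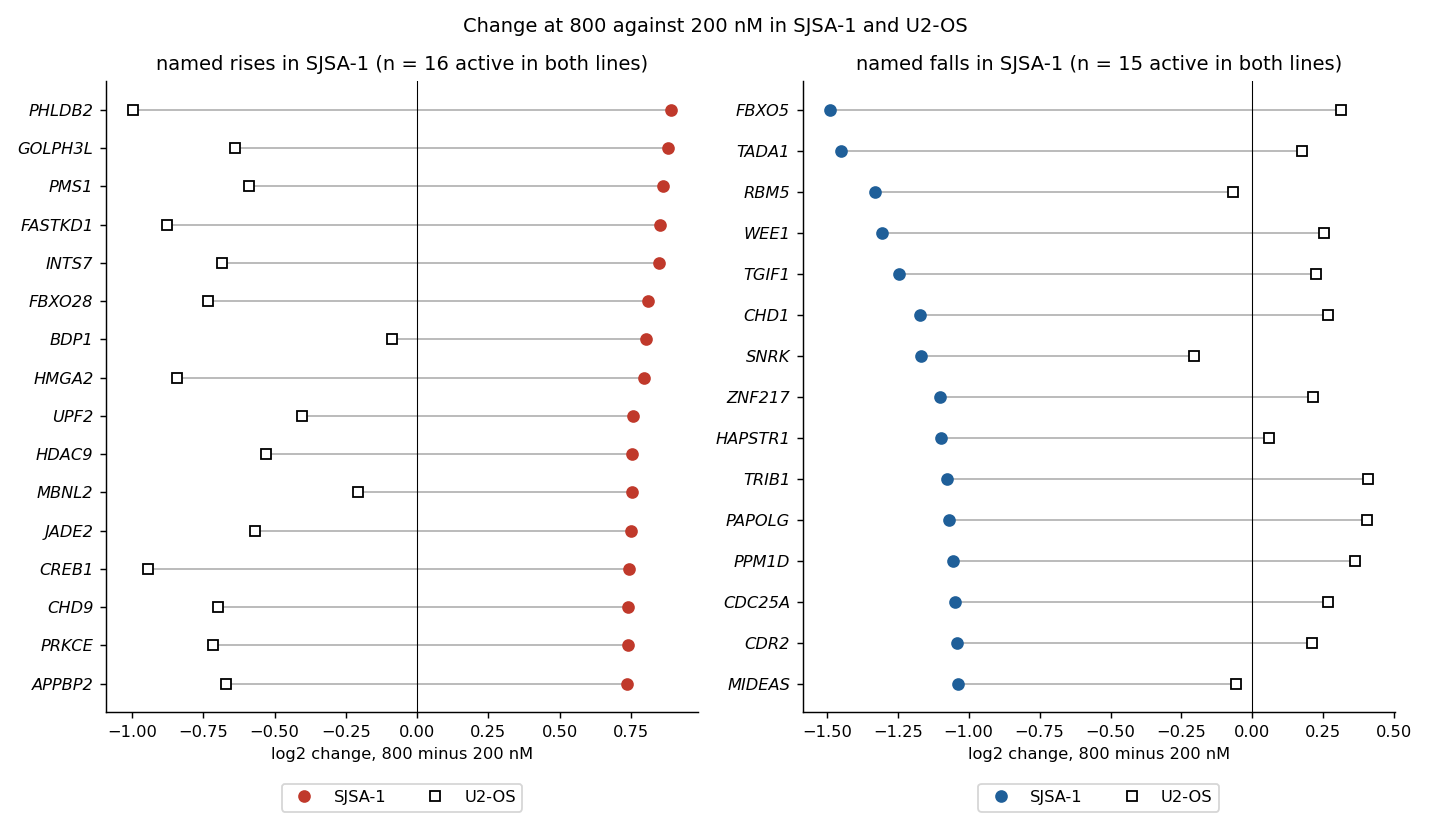
Log2 change at 800 minus 200 nM THZ531 (x axis) in SJSA-1 (filled circles) and U2-OS (open squares) for the named rises (left, 16 genes) and falls (right, 15 genes) active in both lines, joined by a line per gene. All 16 rises have a U2-OS change below 0, with PHLDB2 at 0.89 and −1.0. With the deposited normalization the 15 falls have a median U2-OS change of 0.22, which the poly-A shift turns to −0.16.

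A gene was represented by a single probe set, and probe sets of a gene did not always move together. Of 3475 genes with several active probe sets, 41 (1.18%) had some called higher and some called lower at 800 nM, MDM2 among them. ARMC8, a subunit of a ubiquitin ligase complex, had a probe set that rose by 0.86 and another that fell by 0.26, and the adhesion receptor gene CD44 had a probe set at 0.15 and others at −0.14 on the log2 scale. ARMC8 and CD44 were picked after their values were seen.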

How the data were processed

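RNA of SJSA-1 and U2-OS cells, treated for 6 h with DMSO or 50, 200 or 800 nM THZ531, was measured on 24 PrimeView arrays, 3 in each of 8 groups. For each probe set the authors deposited a linear-scale intensity, which the methods attribute to RMA, with quantile normalization as a step within it, and MAS5 is also named in the submitters' notes on processing. The log2 of these values lies on whole hundredths, so low levels are rounded, and quantile normalization removes any change of total RNA. Groups and replicate numbers came from the sample titles. The number of arrays and the signal over background limit the precision.

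Among 49372 probe sets, 44994 named 1 gene, 1832 named several and 2546 named none. Each gene was read from its brightest probe set on average across all arrays. The linear model was run in limma 3.58.1 (R 4.3.3, statmod 1.5.0) on log2(value) of the 12 SJSA-1 arrays in 4 groups, with lmFit, eBayes and two-sided p-values adjusted by Benjamini-Hochberg across 6568 active genes. Changes in the 2 lines were contrasted in a model of all 24 arrays. Gene spans and promoters are from RefSeq, GRCh38.p14. The fit was also run on simulated data with independent noise for each gene and array. Such data lack deviations that the genes of an array share, so they check the code and not the error of these arrays.

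Named genes were the 20 largest rises and 20 largest falls among called genes with non-overlapping arrays, the study's candidates, CDK7, CDK9, CDK12, CDK13, CCNK, HEXIM1, MDM2 and MYC, and up to 4 called members of each list. Other members of the immediate-early list, the U2-OS contrast by itself (fitted with all 24 arrays), the promoters of the immediate-early list, its members off in DMSO and the other genes off in DMSO were added after values were seen. The comparison, the lists and the rules were chosen with earlier results of these data known. Alternatives were log2(value + 1) and log2(value + 16), other filters and probe-set rules, rescaling by the median, quantiles or spiked controls, trend and robust fitting, array weights, other sets of arrays, a replicate block, the methods' test of 2 groups and leaving out each array. Figures used matplotlib 3.10.9.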

Additional observations from a re-analysis of the deposited data

Results flagged for a closer look

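The change from 200 to 800 nM THZ531 differed between SJSA-1 and U2-OS for each of the 31 named rises and falls that were active in both lines (limma on 24 arrays, adjusted over 5851 genes). Genes were picked for their change in SJSA-1, so the difference is not independent of that choice.

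Among the 16 rises, the log2 difference, SJSA-1 less U2-OS, was 1.89 for PHLDB2, 1.73 for FASTKD1, 1.69 for CREB1, 1.64 for HMGA2, 1.54 for FBXO28, 1.53 for INTS7, 1.52 for GOLPH3L, 1.46 for PRKCE, 1.45 for PMS1, 1.44 for CHD9, 1.41 for APPBP2, 1.32 for JADE2, 1.28 for HDAC9, 1.16 for UPF2, 0.96 for MBNL2 and 0.89 for BDP1. The largest adjusted p of these was 0.00257. BDP1 and MBNL2 had U2-OS changes of −0.09 and −0.21 with adjusted p-values of 0.518 and 0.361 for the U2-OS contrast by itself, and the other 14 were lower at 800 nM there.

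Among the 15 falls, the same difference was −1.8 for FBXO5, −1.63 for TADA1, −1.56 for WEE1, −1.48 for TRIB1, −1.47 for TGIF1, −1.47 for PAPOLG, −1.44 for CHD1, −1.42 for PPM1D, −1.31 for CDC25A, −1.31 for ZNF217, −1.26 for RBM5, −1.25 for CDR2, −1.16 for HAPSTR1, −0.98 for MIDEAS and −0.96 for SNRK. The largest adjusted p of these was 1.06e-05. The differences for all 31 genes passed the test under each of the 4 rescalings of the arrays, although the U2-OS changes themselves moved with the poly-A controls. As each rescaling shifts all genes of an array alike, the size of these picked differences made this outcome close to fixed. Groups had 3 arrays each, so no array was tested as an outlier.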

How the results depend on the processing

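Of the 2196 calls, those retested for the same gene kept their sign under every alternative except the mean of all probe sets, where 23 turned. Filters and values moved counts of genes called with at least a 2-fold fall, which were 7 with log2(value + 16), 13 with a DMSO mean above log2(200), 14 with a mean over the 12 arrays above log2(100), 10 with the mean of all probe sets, 40 with each probe set on its own and 42 after the poly-A shift. A 2-fold rise was called for 1 gene with no filter, 2 probe sets on their own and 2 genes with array weights. With a DMSO mean above log2(200), 1452 genes were called and 567 were lower, and with each probe set, 4224, of which 2696 were higher and 1528 lower. The shift by both kinds of control left 1075 calls (406 higher, 669 lower), the poly-A shift 611 (142 higher, 469 lower) and the hybridization shift 738 higher and 779 lower. Array weights gave 2049 higher. The methods' test of 2 groups gave 2240 calls unadjusted and 894 after Benjamini-Hochberg (410 higher, 484 lower). The share of rises among calls was 60.4% as reported, 50.0% with no filter, 50.7% after a second quantile step, 37.8% after the shift by both controls, 23.2% after the poly-A shift, 48.7% after the hybridization shift and 45.9% in the methods' test. The cause of these moves was not tested.

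Leaving out each array in turn gave 1647 to 2571 calls, 852 to 1665 higher, 745 to 906 lower, 21 to 29 at least 2-fold lower and 0 to 2 at least 2-fold higher, and a span difference of 0.12 to 0.192. For the difference between the lines it gave 2074 to 2337 calls, 1233 to 1516 higher and 798 to 899 lower in SJSA-1. That difference had 3463 calls (1463 lower) with no filter, 1486 (840 higher) with the mean of all probe sets, 300 lower after the shift by both controls, and 1387 calls (125 lower) after the poly-A shift.

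With the mean of all probe sets the change of HNRNPDL was −0.0233, of CD44 −0.0133, of MDM2 −0.0206, of DNAJB12 0.0817 and of PSMD12 0.000833. Leaving out arrays gave DNAJB12 changes of −0.0567 to 0.00333. None of these 6 results passed the test. For the named genes, 3557 of the recomputed changes kept side and sign, 170 lost their call and 4 gained one.

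Arrays at 800 and 200 nM with the same replicate number deviated from their group means with correlations of −0.516, −0.347 and −0.0795. Those with unlike numbers had −0.330 to 0.522. Deviations from a mean of 3 arrays constrain each other, so a common origin of equal numbers cannot be judged from them. The fit with the replicate number as a block gave 2014 calls (1188 higher, 826 lower) and 2198 for the difference between the lines. Low signal over background limits the genes below an intensity of 100, which include all 20 named falls at 800 nM.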

Other observations

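Genes below an intensity of 100 in DMSO but above it at 200 or 800 nM numbered 433. In a fit of all 18132 genes with no filter, 41 of them were called higher and 44 lower at 800 than at 200 nM, and 0 changed by 2-fold or more. Over all 18132 genes that fit called 1227 higher and 1226 lower. The genes named here are all from the 44 that were lower and, MYC aside, were picked after their values were seen.

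ID2, which encodes an inhibitor of helix-loop-helix factors, had levels of 7.22, 7.5 and 7.37 at 800 nM, against 8.33, 8.23 and 8.24 at 200 nM (adjusted p = 0.000232 from limma), with means of 4.21 in DMSO and 7.32 at 50 nM. TXNIP, which encodes a thioredoxin-binding protein, had 6.53, 6.58 and 6.58 at 800 nM, against 7.25, 7.39 and 7.58 at 200 nM. RGS2, a regulator of G protein signalling, and DDIT4, a stress-induced inhibitor of mTORC1, fell by 0.79 and 0.69 on the log2 scale. MYC, the growth-promoting transcription factor gene, was in the same group, with levels of 6.56, 6.74 and 6.91 at 800 nM, against 7.41, 7.25 and 7.31 at 200 nM, and means of 5.25 in DMSO and 6.72 at 50 nM (adjusted p = 0.00139 from limma). The doses did not overlap in these genes, but TXNIP, RGS2 and DDIT4 had mean intensities below 100 at 800 nM. They entered through the 200 nM arrays alone, so the choice fixed their direction.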
